A study of Homo sapiens with 6 samples.

Results

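The genes described here belong to the miR-200 axis and to the epithelial state of human embryonic stem cells. They are the ZEB repressors ZEB1 and ZEB2, the adhesion genes CDH1, EPCAM and CDH2, the splicing regulator ESRP1, the cytoskeletal gene VIM and the surface glycoproteins CD24 and PODXL. They were chosen by symbol among the 16199 gene rows of the deposited count table. Of the 9 genes, 7 had a row matched by symbol or RefSeq synonym, and ZEB1 and ZEB2 were not analysed here. The cells were of the established embryonic stem cell line H1, and the libraries fell into 3 genotypes with 2 libraries each. They were Dicer-S1344L hemizygous (pm/fs in the protocol), Dicer-S1344L homozygous (pm/pm) and wild-type cells. The S1344L lines were engineered with CRISPR-Cas9, and the labels do not give the number of clones. Cells of all 3 genotypes had grown for 10 days without doxycycline, and the labels do not say what doxycycline controlled. Confluent cells from 2 dishes per sample received 254 nm light at 150 mJ/cm2 on 2 occasions. RNA bound to Ago2 was then recovered by iCLIP, a method that crosslinks a protein to its RNA, pulls the protein down with an antibody and sequences the RNA that stays attached. A count therefore reflects both the amount of a transcript and how often Ago2 sat on it, and these cannot be told apart in these libraries.

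Dicer cuts microRNA precursors into duplexes, and an Argonaute protein such as Ago2 keeps a strand of the duplex and carries it to matching sites in messenger RNAs. The miR-200 family is expressed in epithelial cells and represses ZEB1 and ZEB2. These zinc finger repressors in turn silence the miR-200 genes and epithelial genes such as CDH1, so that the family and its targets form a mutually inhibiting pair. Human embryonic stem cells grow as epithelial colonies joined by E-cadherin. The serine changed by S1344L lies in the RNase IIIa domain of Dicer, and the miR-200 strands below come from the 3p arm of their hairpins.

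The 5 mature strands are shown because they define the axis and fall into a pair of seed groups. Sequences are from RefSeq, assembly GRCh38.p14, written 5′ to 3′, with the seed (bases 2 to 8) in capitals.
hsa-miR-200a-3p: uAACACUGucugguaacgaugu
hsa-miR-141-3p: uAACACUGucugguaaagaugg
hsa-miR-200b-3p: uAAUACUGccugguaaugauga
hsa-miR-200c-3p: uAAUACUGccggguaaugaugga
hsa-miR-429: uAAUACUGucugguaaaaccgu
The seed AACACUG is shared by hsa-miR-200a-3p and hsa-miR-141-3p, and AAUACUG by the other three. All lie on the plus strand. The mature hsa-miR-200b-3p, hsa-miR-200a-3p and hsa-miR-429 are at chr1:1167160-1167181, chr1:1167916-1167937 and chr1:1169055-1169076. On the other chromosome, hsa-miR-200c-3p is at chr12:6963742-6963764 and hsa-miR-141-3p at chr12:6964155-6964176. Rows for the hairpins of these microRNAs were not analysed here, so the levels of the microRNAs themselves are not part of the results.

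The libraries held 39.7 M and 51.6 M counts for hemizygous, 46.2 M and 39.6 M for homozygous and 52.9 M and 38.2 M for wild-type cells. All 11 embryonic stem cell markers, POU5F1, SOX2 and NANOG among them, had counts in every library, and their summed level ran between 8012 and 9352 CPM (counts scaled to a common library total). The defining markers PAX6 and SOX1 of neuroectoderm, TBXT and EOMES of mesendoderm and GATA3 and TFAP2A of trophoblast were not analysed here, and the measured markers of these types summed to 428 to 589, 1.87 to 3.44 and 7.53 to 11.7 CPM, in that order. On the first principal component of log2 CPM, which held 63.1% of the variance, hemizygous replicate 1 lay at -31.9 and wild-type replicate 1 at -27.1, against 2.17 to 22.9 for the other four libraries. These libraries stood apart from the second library of their own genotype, and values are given with and without them where a difference rested on them. Whether both libraries of a genotype came from different cultures is not stated, and the p-values therefore cover the spread of these libraries alone, which may be technical. DICER1, which encodes Dicer, had 118 and 96.4 CPM in hemizygous, 129 and 118 CPM in homozygous and 169 and 126 CPM in wild-type libraries, and such counts cannot show the substitution.

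CPM use TMM factors, which align the bulk of the genes between libraries. Levels are compared here for 1 gene across libraries and not between genes, since transcript lengths were not used. Fold changes are log2 values from edgeR's quasi-likelihood test over all 16199 rows, with p-values adjusted by Benjamini-Hochberg over all of them, and a gene was called at an adjusted p under 0.05.

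None of the 7 genes was called in any comparison by edgeR, and all 28 adjusted p-values were 0.999 or higher. The share of all rows called was 0.00% in the hemizygous and 0.00% in the homozygous cells against wild-type, 0.00% for both S1344L genotypes together against wild-type and 0.00% in homozygous against hemizygous cells. At an unadjusted p under 0.05 the 4 comparisons also held 0 of the 7 genes, against 0.870%, 2.69%, 1.94% and 0.765% of all rows in the same order. These shares stand for 141, 435, 314 and 124 rows, each below the 810 rows expected by chance. The p-values thus ran high, and a high p does not show that the genotypes are alike. The lowest unadjusted p among the 7 genes was 0.126, for CD24 in homozygous against wild-type cells. DESeq2 and limma-voom called 0 of the 7 genes in these comparisons, while DESeq2 called 7 to 10 of all rows in each. The epithelial, mesenchymal and surface genes are therefore given below as levels with the interval of each difference, which bounds how large a change these libraries leave possible.

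CDH1 encodes E-cadherin, the calcium-dependent adhesion protein of epithelial junctions and a gene that ZEB factors repress. The gene lies on chromosome 16 (chr16:68737292-68835537 in GRCh38.p14). CDH1 had 599 and 441 CPM in hemizygous, 540.05 and 393 CPM in homozygous and 564 and 475 CPM in wild-type libraries. The first library was the higher in each genotype and the 3 genotypes overlapped. Among first libraries CDH1 was highest in hemizygous cells, and among second libraries in wild-type cells. The means were 520 ± 112 CPM in hemizygous, 467 ± 104 CPM in homozygous and 519 ± 62.6 CPM in wild-type cells (SD, n = 2 each). By edgeR the log2 fold change was 0.00 (SE 0.22) for hemizygous against wild-type, with a 95% interval of -0.52 to 0.53. It was -0.15 (SE 0.22) for homozygous against wild-type, with an interval of -0.68 to 0.37. For the Ago2-bound CDH1 counts of homozygous cells, this interval thus ran from 0.624 to 1.29 times the wild-type level. E-cadherin protein was not measured. No neighbours in the order hemizygous, wild-type, homozygous differed beyond their spread. The gene span also holds the ferritin pseudogene row FTLP14, and how reads in such overlaps were assigned is not given in the sources used here.

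EPCAM encodes a homophilic adhesion molecule of epithelia and of undifferentiated stem cells, and lies on chromosome 2 (chr2:47369311-47387020). EPCAM had 168 and 162 CPM in hemizygous, 185 and 153 CPM in homozygous and 182 and 174 CPM in wild-type libraries. Both hemizygous libraries were below both wild-type libraries, and the homozygous pair spanned all the others. EPCAM had a log2 fold change of -0.11 (SE 0.14, 95% interval -0.45 to 0.22) in hemizygous and -0.07 (SE 0.14, interval -0.41 to 0.26) in homozygous against wild-type cells. Its mean of 165 ± 4.20 CPM in hemizygous cells compares with 178 ± 5.41 CPM in wild-type cells (SD, n = 2 each).

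ESRP1 encodes the splicing factor that maintains epithelial forms of transcripts such as those of FGFR2 and CD44, and it too is repressed by ZEB factors. It lies on chromosome 8 (chr8:94641174-94707466). ESRP1 had 292 and 296 CPM in hemizygous, 305 and 276 CPM in homozygous and 269 and 271 CPM in wild-type libraries. All 4 S1344L libraries were above both wild-type libraries, the only gene of the 7 with this separation. Among all rows, 4.29% had every S1344L library above every wild-type library. For ESRP1 the log2 value was 0.12 (SE 0.11, interval -0.14 to 0.37) for both S1344L genotypes against wild-type, 0.13 (SE 0.12) for hemizygous and 0.11 (SE 0.12) for homozygous cells. The edgeR test did not call it, with an adjusted p of 1.00 in each case. The sign stayed positive against wild-type when any single library was left out, between 0.08 and 0.15 for both S1344L genotypes.

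**Figure D1:**
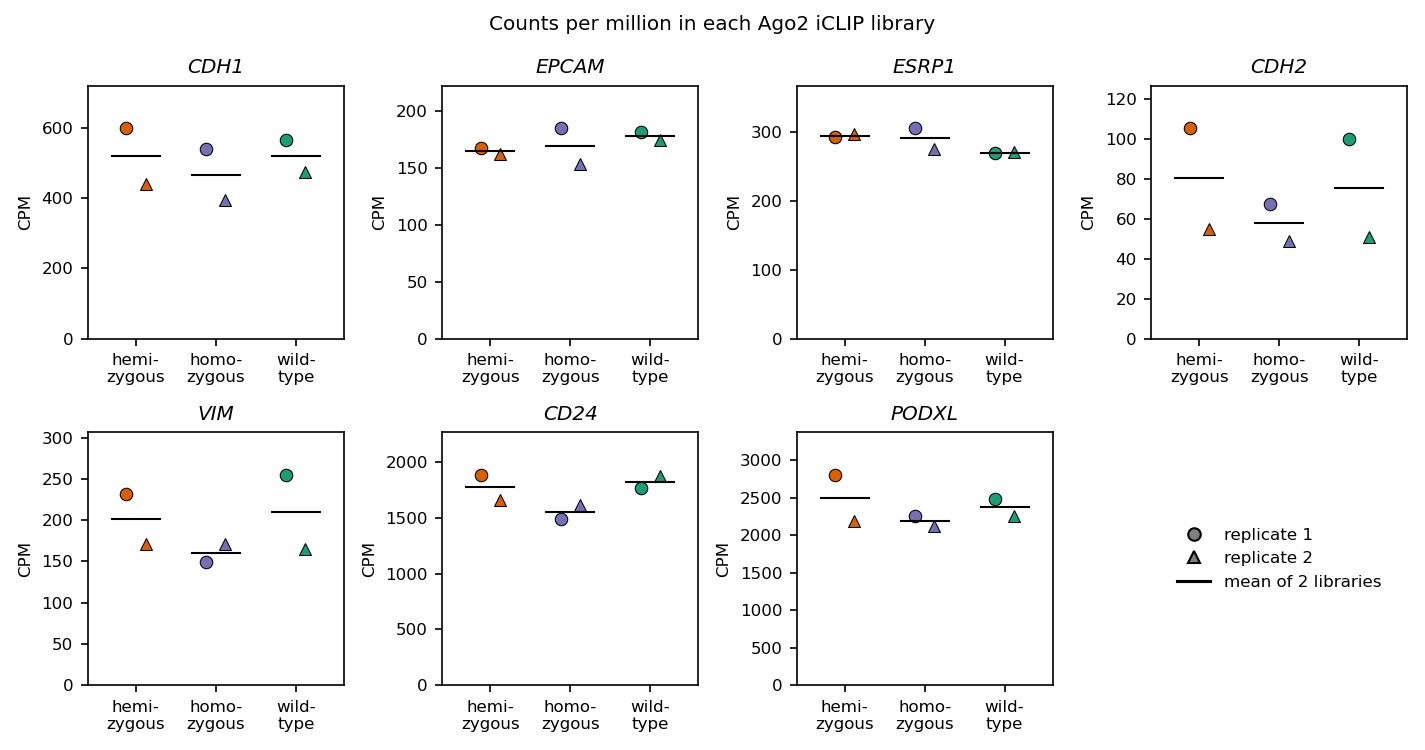
Level of each gene in each library, in CPM on linear axes that start at 0, for hemizygous, homozygous and wild-type cells. Circles are replicate 1, triangles replicate 2 and lines the mean of 2 libraries; ESRP1 shows both S1344L pairs above the wild-type pair, at 269 and 271 CPM, and CDH2 shows the first library far above the second in hemizygous and wild-type cells.

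CDH2 encodes N-cadherin, the cadherin of neural and mesenchymal cells that replaces E-cadherin when an epithelium turns mesenchymal. It lies on chromosome 18 (chr18:27932879-28177130). CDH2 had 105 and 54.8 CPM in hemizygous, 67.2 and 48.7 CPM in homozygous and 99.7 and 50.6 CPM in wild-type libraries. In hemizygous and wild-type cells the first library was 1.92 and 1.97 times the second, and only 6.31% and 4.97% of all rows had a larger gap between those libraries. CDH2 differed by 0.09 on the log2 scale (SE 0.41, interval -0.88 to 1.06) in hemizygous and -0.38 (SE 0.41, interval -1.35 to 0.60) in homozygous against wild-type cells. CDH2 thus has the widest interval of the 7 genes, and a homozygous level between 0.392 and 1.51 times wild-type lies within it. Without wild-type replicate 1 the homozygous value turned to 0.20 and the hemizygous value was 0.67. Without hemizygous replicate 1 the hemizygous value turned to -0.45. Leaving out a first library leaves unequal numbers of first and second libraries in the groups compared. Among first libraries and among second libraries alike, CDH2 was highest in hemizygous, then in wild-type and lowest in homozygous cells. The labels do not say that a shared replicate number marks a shared batch, so this order is a description.

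VIM encodes vimentin, the intermediate filament of mesenchymal cells, which cultured embryonic stem cells also make. It lies on chromosome 10 (chr10:17228241-17237593) and shares its span with the antisense row VIM-AS1, which held 1.39 to 2.12 CPM. VIM had 232 and 172 CPM in hemizygous, 149 and 171 CPM in homozygous and 255 and 165 CPM in wild-type libraries. The homozygous libraries were both below the hemizygous pair and overlapped the wild-type pair. The higher homozygous library, at 171.3 CPM, nearly met the lower hemizygous library, at 171.8 CPM. Among first libraries VIM was highest in wild-type and lowest in homozygous cells. Among second libraries it was highest in hemizygous and lowest in wild-type cells. The log2 fold change for homozygous against wild-type was -0.39 (SE 0.25, interval -0.98 to 0.19, unadjusted p = 0.156, adjusted p = 1.00 by edgeR). It was -0.03 without wild-type replicate 1, so that the difference rested on that library. For hemizygous against wild-type it was -0.06 (SE 0.25, interval -0.65 to 0.53), and it was 0.30 without the same library. For homozygous against hemizygous it was -0.33 (SE 0.25) with all libraries and -0.10 without hemizygous replicate 1.

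CD24 encodes a small, heavily glycosylated surface protein tethered to the membrane by a lipid anchor, and lies on chromosome 6 (chr6:106969831-106976855). CD24 had 1889 and 1663 CPM in hemizygous, 1489.6 and 1614 CPM in homozygous and 1770.1 and 1878 CPM in wild-type libraries. The homozygous libraries were the lowest of the 6, below both hemizygous and both wild-type libraries. In homozygous cells the difference for CD24 was -0.23 on the log2 scale (SE 0.13, interval -0.55 to 0.09) against wild-type and -0.19 (SE 0.13, interval -0.51 to 0.12) against hemizygous cells. Both intervals include 0, and a homozygous level below 0.683 times wild-type lies outside the first. The sign stayed negative without any single library, between -0.29 and -0.18 against wild-type. In hemizygous against wild-type cells the value was -0.04 (SE 0.13).

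PODXL encodes podocalyxin, a sialomucin that keeps apical surfaces apart and carries the TRA-1-60 and TRA-1-81 epitopes used to identify human pluripotent cells. It lies on chromosome 7 (chr7:131500271-131556628). PODXL had 2810.3 and 2189 CPM in hemizygous, 2258 and 2128 CPM in homozygous and 2484 and 2259.8 CPM in wild-type libraries. The homozygous libraries were both below the wild-type pair, although the higher of them nearly met the lower wild-type library, and hemizygous replicate 1 stood above all the rest. PODXL had a log2 fold change of 0.08 (SE 0.16, interval -0.30 to 0.46) in hemizygous and -0.11 (SE 0.16, interval -0.49 to 0.27) in homozygous against wild-type cells. Without hemizygous replicate 1 the hemizygous value was -0.11.

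In hemizygous against wild-type cells, 4 of the 7 fold changes were above 0 and 3 below, against 49.1% and 50.9% of all rows. ESRP1 was the only gene with both hemizygous libraries above both wild-type libraries and EPCAM the only one with both below, where 8.13% of all rows separated upwards and 9.21% downwards. In homozygous against wild-type cells, 1 fold change was above 0 and 6 below, against 49.3% and 50.7% of all rows. There ESRP1 separated upwards, and CD24 and PODXL downwards, where 14.2% of all rows separated upwards and 13.6% downwards. For homozygous against hemizygous cells, EPCAM was the only gene above 0, against 49.9% of all rows, and 6 genes were below 0, against 50.1%. VIM, by a narrow margin, and CD24 had both homozygous libraries below both hemizygous libraries, as did 10.4% of all rows. Taking both S1344L genotypes against wild-type, ESRP1 was above 0 and 6 genes were below, against 48.2% and 51.8% of all rows, and none of the 6 separated by library, against 4.58% of all rows. The comparisons against wild-type share the wild-type libraries, so their values are not independent of each other.

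**Figure D2:**
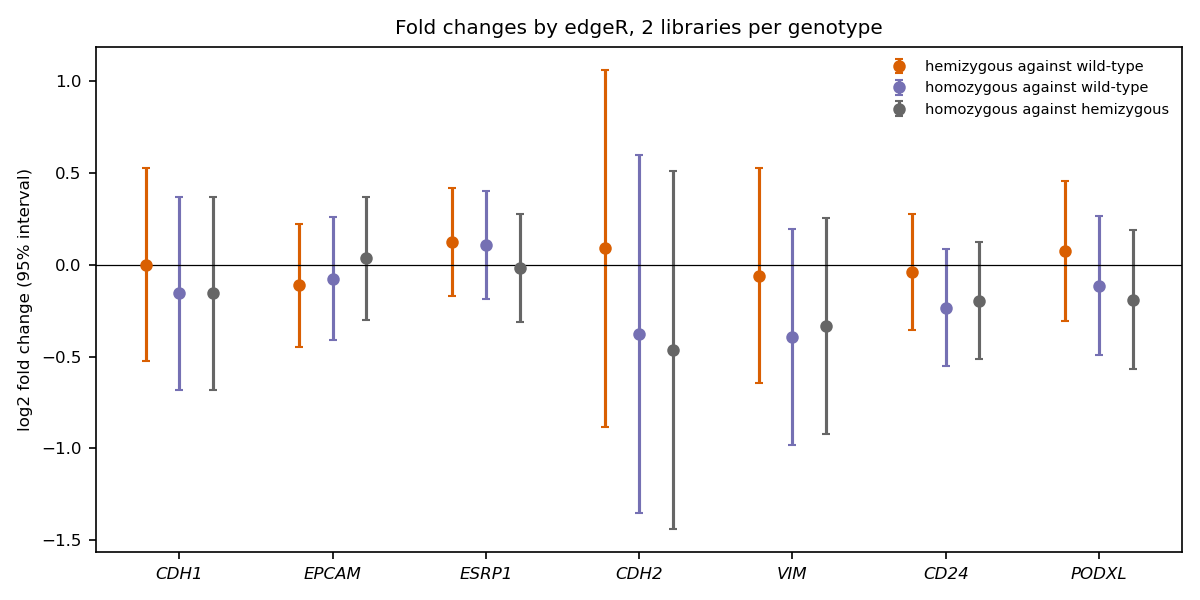
The log2 fold change of each gene from edgeR with its 95% interval, for hemizygous and homozygous cells, each against wild-type, and for homozygous against hemizygous cells (2 libraries each). All 21 intervals include 0, and CDH2 has the widest of the 7 genes in each comparison, from -1.35 to 0.60 in homozygous against wild-type cells.

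For each of the 7 genes but CD24, the libraries of at least 1 genotype differed by more than any fold change between genotypes. The difference of replicate 1 minus replicate 2, in log2 CPM, was 0.94 in hemizygous, 0.46 in homozygous and 0.98 in wild-type cells for CDH2. For CDH1 it was 0.44, 0.46 and 0.25 in the same order. VIM gave 0.43 and 0.63 in hemizygous and wild-type cells and the opposite sign, -0.20, in homozygous cells. PODXL had 0.36 in hemizygous cells and 0.09 and 0.14 in homozygous and wild-type cells. ESRP1 had -0.02, 0.15 and -0.01 in the same order, and the gap was larger in 96.1%, 61.6% and 97.6% of all rows. In homozygous cells PODXL and CD24, at 0.09 and -0.12, had smaller gaps than ESRP1. The median row differed between its 2 libraries by a fold of 1.22 in hemizygous, 1.15 in homozygous and 1.19 in wild-type cells.

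**Figure D3:**
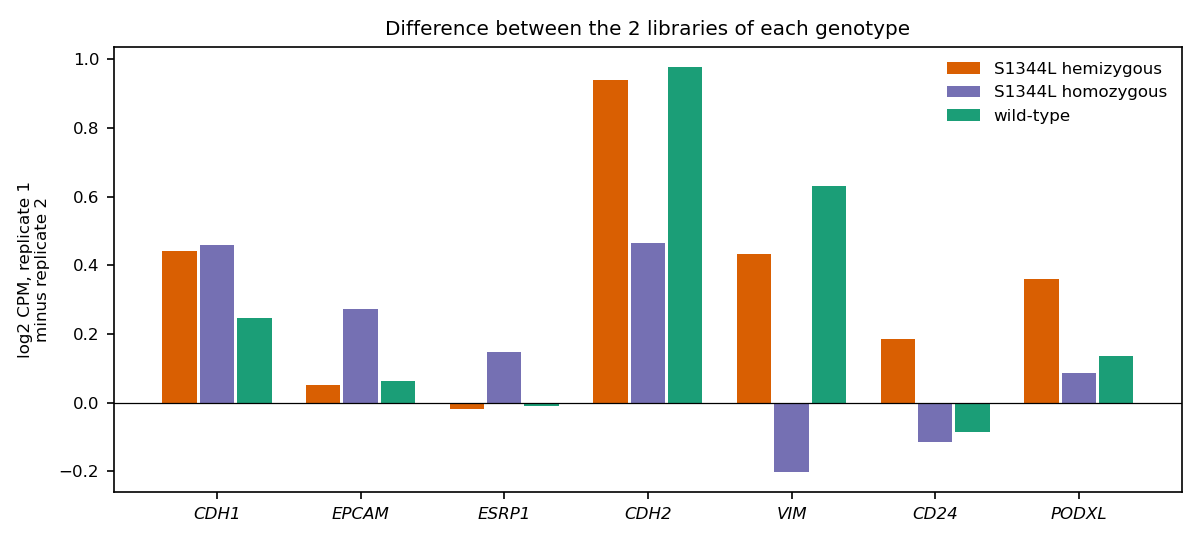
Difference between the 2 libraries of each genotype (replicate 1 minus replicate 2, in log2 CPM) for the 7 genes, with bars for hemizygous, homozygous and wild-type cells. The bars of CDH1 and CDH2 point upwards in all 3 genotypes, up to 0.98 for CDH2 in wild-type cells, while those of ESRP1 stay between -0.02 and 0.15.

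The counts of CDH1 and CDH2, whose proteins mark opposite states in an epithelial to mesenchymal switch, varied together across these libraries. Over the 6 libraries, log2 CPM of CDH1 and CDH2 had a Pearson correlation of 0.898, CDH2 and PODXL 0.909, CDH1 and PODXL 0.852, and CDH2 and VIM 0.828. ESRP1 had -0.40 with VIM and -0.53 with CD24, and between 0.04 and 0.20 with PODXL, CDH2, EPCAM and CDH1. These are descriptions over 6 points that share the library split above. Of 9801 rows with a symbol and a mean of at least 10 CPM, 15.1% had a correlation above 0.9 with CDH1, so that such values are common for it. The rows most like CDH1 were the splicing factor gene PRPF4, the exon junction gene CASC3 and the calcium pump gene ATP2B1, each at 0.998. For EPCAM only 0.735% of rows passed 0.9, and the most like it were POLR1E at 0.984, GPHN at 0.966 and IFT52 at 0.965 (RNA polymerase, synaptic scaffold and ciliary transport genes).

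Among the wider set of epithelial genes, 44 of 46 listed had a row. Of these, 33 were below 0 in hemizygous against wild-type cells, 31 in homozygous against wild-type and 34 for both S1344L genotypes together, and 0 were called by edgeR. The medians were -0.08, -0.10 and -0.08, beside 0.00, 0.00 and -0.01 over all rows, and the differences were thus small. Without any single hemizygous or wild-type library, the count for both genotypes together was 27 to 33. Both hemizygous libraries were below both wild-type libraries for 11 of the 44 (25.0%), and both homozygous libraries for 14 (31.8%), where 9.21% and 13.6% of all rows did so. The list holds CDH1, EPCAM, ESRP1 and CD24, and without them 31 of 40 were below 0 for both genotypes together.

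The tight junction gene CLDN4, which encodes a claudin, was the epithelial gene with the largest difference for both S1344L genotypes together, while TJP1 at -0.79 passed its -0.75 in homozygous against wild-type cells. CLDN4 had 17.2 and 22.3 CPM in hemizygous, 17.9 and 19.3 CPM in homozygous and 24.6 and 37.8 CPM in wild-type libraries. All 4 S1344L libraries were below both wild-type libraries, with a log2 fold change of -0.70 (SE 0.20, unadjusted p = 0.011, adjusted p = 1.00 by edgeR). Without wild-type replicate 2 the value was -0.35. The junction genes TJP1, a scaffold also called ZO-1, and OCLN, occludin, had log2 values of -0.61 and -0.46 for both genotypes at levels below 10 CPM. For each, both homozygous libraries were below both wild-type libraries and the hemizygous libraries overlapped the wild-type ones. For OCLN the higher homozygous library, at 2.225 CPM, nearly met the lower wild-type library, at 2.226 CPM. Without wild-type replicate 1 the value of OCLN turned to 0.19, and without wild-type replicate 2 that of TJP1 was -0.21. JUP, plakoglobin of desmosomes and adherens junctions, had 108 and 120 CPM in hemizygous, 130.1 and 117 CPM in homozygous and 136 and 152 CPM in wild-type libraries. The keratin gene KRT8 of simple epithelia had 340.1 and 417 CPM in hemizygous, 406 and 372 CPM in homozygous and 406 and 559 CPM in wild-type libraries. The log2 fold changes for both genotypes were -0.28 for JUP and -0.33 for KRT8, and neither gene was called. Without wild-type replicate 2 they were -0.19 for JUP and -0.07 for KRT8.

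Among mesenchymal genes, 26 of 29 listed had a row and 0 were called in any comparison. In homozygous cells 21 of the 26 were below 0 against wild-type and 24 against hemizygous cells, with medians of -0.35 and -0.36. In hemizygous against wild-type cells 15 were above 0 and 11 below, with a median of 0.07. These counts moved when a single library was left out. Without wild-type replicate 1, 11 of 26 were below 0 in homozygous against wild-type cells and the median was 0.07. Without hemizygous replicate 1, 13 of 26 were below 0 in homozygous against hemizygous cells and the median was -0.02. In hemizygous against wild-type cells, 4 of 26 were below 0 without wild-type replicate 1 and 18 of 26 without hemizygous replicate 1. Each of these fits left unequal numbers of first and second libraries in the groups compared.

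TAGLN, the smooth muscle actin-binding gene transgelin, had 131 and 57.3 CPM in hemizygous, 74.5 and 59.7 CPM in homozygous and 187 and 63.1 CPM in wild-type libraries. The first hemizygous and the first wild-type library were the highest for TAGLN, and its log2 fold change of -0.66 (SE 0.46) for both genotypes was not called. It turned to 0.34 without wild-type replicate 1 and was -1.002 without hemizygous replicate 1. Leaving out a first library left unequal numbers of first and second libraries in the groups compared. TAGLN was highest in wild-type cells among first libraries and among second libraries alike. Hemizygous cells were above homozygous cells among first libraries and below them among second libraries. PDGFRA, a growth factor receptor of mesenchyme, had a log2 value of 0.76 at 0.87 to 2.48 CPM. The 10 measured markers of fibroblast and stromal cells, all of them also in the mesenchymal list, summed to 993 and 784 CPM in hemizygous, 724 and 756 CPM in homozygous and 1082 and 872 CPM in wild-type libraries. Their median for both genotypes was -0.22 with all libraries, 0.30 without wild-type replicate 1 and, with hemizygous replicate 1 left out, -0.33. None of these 10 was at 0 in any library, while COL3A1, DCN, LUM and FAP were not analysed here, and the part of such cells in the mesenchymal values was not tested. In these pooled cultures, fewer cells of a type, less RNA per cell and less Ago2 on that RNA cannot be told apart.

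**Figure D4:**
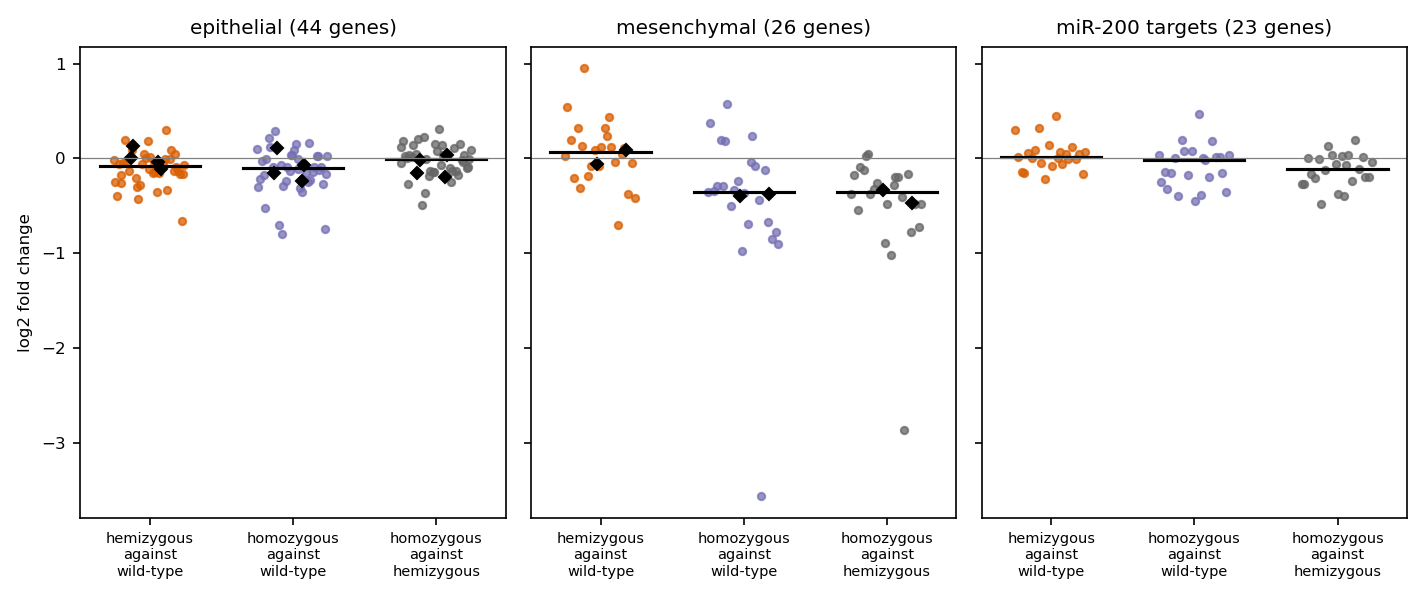
The log2 fold change of each measured gene in the epithelial (44 genes), mesenchymal (26 genes) and miR-200 target (23 genes) lists, for 3 comparisons. Points are genes, black diamonds are those of the 7 described genes that a list holds, and lines are medians; the mesenchymal medians lie at 0.07, -0.35 and -0.36 and the epithelial medians at -0.08, -0.10 and -0.01.

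Of 27 listed targets of the miR-200 family, 23 had a row and 0 were called; the list includes ZEB1 and ZEB2, not analysed here. In hemizygous against wild-type cells 14 were above 0 and 9 below, with a median of 0.02, and in homozygous cells 11 were above and 12 below, with a median of -0.02. The first median ran from -0.09 without hemizygous replicate 1 to 0.14 without hemizygous replicate 2, and the second was -0.21 without homozygous replicate 1. Both homozygous libraries were below both wild-type libraries for 7 of the 23 (30.4%), where 13.6% of all rows did so, and above them for 1. JAG1, a Notch ligand, had 67.3 and 67.0 CPM in hemizygous, 60.4 and 56.6 CPM in homozygous and 75.5 and 74.5 CPM in wild-type libraries. All S1344L libraries were below both wild-type libraries for JAG1, with a log2 fold change of -0.26 (SE 0.10, adjusted p = 1.00 by edgeR). KDR, the VEGF receptor, was the target with the largest difference, with 333 and 393 CPM in hemizygous, 376 and 361 CPM in homozygous and 257 and 276 CPM in wild-type libraries. Its log2 fold change for both genotypes was 0.46 (SE 0.12, unadjusted p = 0.00768, adjusted p = 1.00), and it went in the opposite direction to JAG1. SEC23A, a coat protein gene of secretory vesicles, had a log2 value of -0.26 for both genotypes. Both homozygous libraries, at 80.9 and 74.9 CPM, were below the hemizygous libraries at 117 and 84.7 CPM and the wild-type libraries at 116 and 97.0 CPM, and the hemizygous and wild-type libraries overlapped.

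Among 14 listed transcription factors of the epithelial to mesenchymal transition, 5 had a row, and their log2 values for both genotypes ran from -0.07 to 0.05. SNAI1, the repressor Snail, had 10.0 and 9.74 CPM in hemizygous, 8.46 and 9.31 CPM in homozygous and 9.54 and 10.2 CPM in wild-type libraries. Both homozygous libraries were below all the other libraries for SNAI1, while the genotypes overlapped for KLF8. For SNAI3 both homozygous libraries were above both hemizygous libraries, by a narrow margin, and the wild-type libraries overlapped both pairs. The log2 values for both genotypes were -0.07 for SNAI1, 0.05 for SNAI3 and -0.06 for KLF8, and none was called. Of the ZEB loci, the antisense row ZEB1-AS1 held 2.22 and 4.40 CPM in hemizygous, 3.13 and 3.89 CPM in homozygous and 3.01 and 4.55 CPM in wild-type libraries, and it does not stand in for ZEB1. The 13 measured corepressor partners of the ZEB proteins had a median of 0.00 for both genotypes against wild-type, with RCOR1, CHD4 and MTA2 at -0.15, 0.12 and -0.14, and CHD4 turned to -0.16 without wild-type replicate 1.

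All 18 cadherin and catenin adhesion genes had a row, of which 5 were above 0 and 13 below for both genotypes, with a median of -0.06. Without wild-type replicate 1, 8 of 18 were below 0 and the median was 0.01. VCL, which encodes vinculin at the actin side of junctions, had the same library split as CDH2, with 921 and 436 CPM in hemizygous, 507 and 401 CPM in homozygous and 959 and 504 CPM in wild-type libraries. NECTIN3, an adhesion molecule of adherens junctions, had 72.3 and 34.8 CPM in hemizygous, 41.6 and 27.5 CPM in homozygous and 73.5 and 39.6 CPM in wild-type libraries. For both genes the first library was the higher in every genotype, and the log2 value for both genotypes was -0.40. Without wild-type replicate 1 it turned to 0.15 for VCL and 0.12 for NECTIN3, and without hemizygous replicate 1 it was -0.71 and -0.70. These fits, like that of the list above, left unequal numbers of first and second libraries in the groups compared. Among first libraries and among second libraries alike, VCL and NECTIN3 were highest in wild-type, then in hemizygous and lowest in homozygous cells. The 7 measured genes around podocalyxin were all below 0 for both genotypes, between -0.19 and -0.02, against 51.8% of all rows. In hemizygous against wild-type cells 2 of the 7 were above 0. For both genotypes PODXL2 was at -0.19 and the membrane linkers EZR at -0.13 and RDX at -0.16. PODXL2 was -0.03 without wild-type replicate 2, and RDX was -0.01 without wild-type replicate 1. Among 13 splicing regulators related to ESRP1, PTBP2, the neural polypyrimidine tract binding protein, had 70.3 and 78.2 CPM in hemizygous, 93.1 and 80.0 CPM in homozygous and 60.3 and 64.8 CPM in wild-type libraries. All S1344L libraries were above both wild-type libraries for PTBP2, with a log2 value of 0.36 (SE 0.12, adjusted p = 1.00). RBFOX2 and MBNL2, splicing factors of mesenchymal and muscle programmes, were at -0.27 and -0.58 for both genotypes, the second at 1.61 to 6.26 CPM. In hemizygous against wild-type cells MBNL2 was at -0.03. For both genotypes MBNL2 was -0.09 without wild-type replicate 1, and RBFOX2 was -0.08 without homozygous replicate 2.

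**Figure D5:**
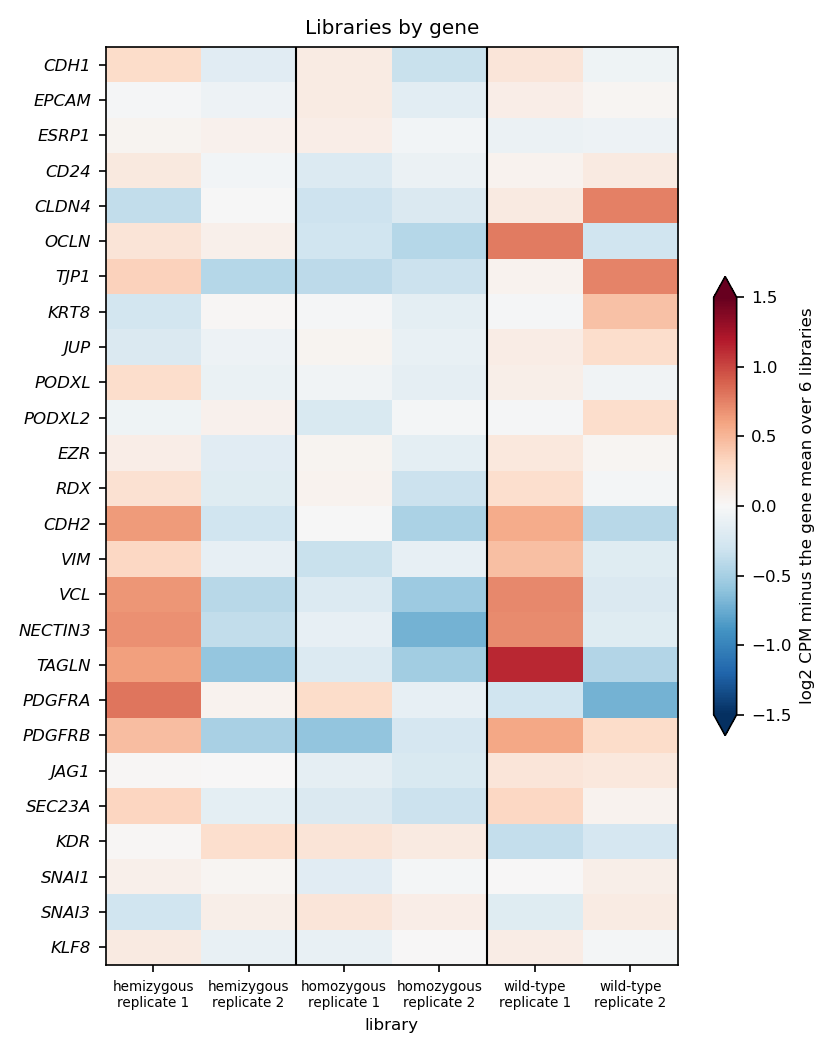
Level of 26 named genes in each library, as log2 CPM minus the gene's mean over the 6 libraries (red above, blue below, colours saturating at 1.5). Columns are hemizygous, homozygous and wild-type libraries; TAGLN, VCL and CDH2 are red in hemizygous replicate 1 and wild-type replicate 1, while KDR is blue in both wild-type columns.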

How the data were processed

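Counts per gene were deposited by the authors as one table of 16199 rows and 6 libraries. The genome build was hg38, per the submitters' processing notes. Not given in the sources used here are the aligner, the counter, the annotation, strand use and any molecular identifiers, so reads of overlapping or antisense rows cannot be told apart. The lowest row total was 132. Columns were matched to samples by the labels, and 0 were left unused. IgG pull-downs were not used here.

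After TMM scaling, filterByExpr removed no row, and edgeR 4.0.16 in R 4.3.3 tested all of them with a mean per genotype over all 6 libraries. Intervals are at 95%, and a standard error is the fold change over the root of F. Libraries held 38.2 M to 52.9 M counts.

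The 9 genes and all 16 lists were chosen with earlier results of these data known. From each list, up to 3 other genes were named, those with the largest absolute log2 fold change for both genotypes against wild-type at a mean of at least 1 CPM. Duplicate names of a pair of listed genes were removed after the table was read. For likeness, the 3 most correlated rows of at least 10 CPM were named. The genes of the heat map were picked from the named ones. A gene that this rule names is not reported here.

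Alternatives were RLE, upper-quartile and library-total scaling, no filter, at least 20 counts in 2 libraries, limma-voom (limma 3.58.1), DESeq2 1.42.0, fits on the compared genotypes alone, a replicate block, and fits without each library. The pipeline was tested on simulated data. List medians and counts under other scalings and without each library, and named genes without each library, were added after the data were seen.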

Additional observations from a re-analysis of the deposited data

How the results depend on the processing

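None of the 7 genes was called under any alternative (0 of 245 values with all libraries and 0 of 168 with a library left out). Among the 245 values, the lowest adjusted p was 0.427, by edgeR with the replicate block. Of the 245 values, 240 kept their sign. The 5 exceptions lay near 0: CDH1 in hemizygous against wild-type cells was 0.0010 and became -0.0013 with upper-quartile scaling, -0.0144 with library totals, -0.0117 with the replicate block and -0.0102 with limma-voom, and ESRP1 in homozygous against hemizygous cells was -0.0191 and became 0.0061 with upper-quartile scaling.

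The number of rows called, 0 in each comparison, became 7 with DESeq2 and 1 with the replicate block for hemizygous against wild-type, 10 with DESeq2 for homozygous against wild-type and for both genotypes, and 10 with DESeq2 and 1 with the block for homozygous against hemizygous. With a library left out it ran from 0 to 2, 0 to 1, 0 to 2 and 0 to 3 in these 4 comparisons. The labels do not say that a shared number marks a shared batch, and only 2 numbers exist. Deviations from the genotype means correlated at 0.784 for hemizygous and wild-type, 0.523 for hemizygous and homozygous and 0.391 for homozygous and wild-type libraries.

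With a library left out, 27 of 168 values changed sign. Leaving out a library of a compared genotype leaves unequal numbers of first and second libraries in the groups. In hemizygous against wild-type cells CDH1 ran from -0.23 to 0.21, CDH2 from -0.45 to 0.67, VIM from -0.33 to 0.30, CD24 from -0.13 to 0.0506 and PODXL from -0.11 to 0.24. In homozygous against wild-type cells CDH1 ran from -0.40 to 0.0565, CDH2 from -0.77 to 0.20 and EPCAM from -0.22 to 0.0557. For both genotypes CDH1 ran from -0.20 to 0.0572, CDH2 from -0.54 to 0.43, VIM from -0.49 to 0.13 and PODXL from -0.10 to 0.0658. In homozygous against hemizygous cells CDH1 ran from -0.40 to 0.0821, CDH2 from -0.86 to 0.0792, PODXL from -0.36 to 0.0041, EPCAM from -0.11 to 0.17 and ESRP1 from -0.10 to 0.0532. Other scalings turned the sign of the epithelial median in homozygous against hemizygous cells (-0.01 to 0.02) and of the miR-200 target median in homozygous against wild-type cells (-0.02 to 0.01). Where a genotype was left with 1 library, it was assumed to vary like the others.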

Other observations

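Among genes of neuroectoderm, 6 of 12 listed had a row and 0 were called. ZIC1, a neural zinc finger gene, had 41.0 and 58.9 CPM in hemizygous, 28.2 and 28.0 CPM in homozygous and 17.9 and 16.3 CPM in wild-type libraries. All S1344L libraries were above both wild-type libraries, and both hemizygous libraries were above both homozygous libraries. The log2 fold change of ZIC1 for both genotypes was 1.13 (SE 0.18, unadjusted p = 0.000436, adjusted p = 1.00 by edgeR). For hemizygous against wild-type cells it was 1.54 (SE 0.20, adjusted p = 0.71). The neural genes FABP7 and DCX had log2 values of 0.97 and 0.58 at levels below 10 CPM, with all S1344L libraries above both wild-type libraries. The remaining measured genes of this list, NES, OTX2 and MAP2, named after their values were seen, were at -0.11, -0.05 and -0.09 for both genotypes. For each of these, both homozygous libraries were below both wild-type libraries. Among all rows, 4.29% had every S1344L library above every wild-type library, and 13.6% had both homozygous libraries below both wild-type libraries.

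Of the hosts of miR-200 family and related microRNAs, MIR205HG, the host transcript of miR-205, had 15.1 and 10.5 CPM in hemizygous, 5.07 and 10.4 CPM in homozygous and 22.5 and 13.1 CPM in wild-type libraries. Every homozygous library was below every wild-type library, with a log2 fold change of -1.21 that edgeR did not call. The embryonic stem cell markers lay at a median of 0.11 for both genotypes against wild-type, with 10 of 11 above 0 and 0 called. Among all rows, 48.2% were above 0 in this comparison. Of 17 intermediate filament genes, 5 were above 0 and 12 below for both genotypes, with a median of -0.11 and 0 called. DES and SYNM were at 0.59 and 0.40, at levels below 10 CPM, and KRT8 at -0.33. The value of KRT8 was -0.07 without wild-type replicate 2.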
